A study of Mus musculus and Rattus norvegicus with 96 samples.

Results

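The comparison was between 2 ways of preserving rat lung before it was embedded in paraffin, measured in 12 of the 96 libraries of the series. In the first group (FR > FFPE, n = 6) the lung was frozen and was then placed in 10% formalin for 18 to 24 h. In the second group (1 yr FFPE, n = 6) the lung went into the same fixative without freezing and remained there for 1 yr. All 12 libraries came from lung of male WKY rats given vehicle only, and all were lysates of the embedded tissue, read with the TempO-Seq s1500+ rat panel of 2603 genes. The libraries were taken by their numbers in the labels, 55 to 60 for FR > FFPE and 61 to 66 for 1 yr FFPE. Freezing and time in formalin differ together between these groups, so their parts in a difference cannot be told apart. The labels do not say whether libraries of one group came from separate rats, or whether the groups shared rats, so p-values measure the spread between these libraries. In bulk tissue, fewer cells of a type and less RNA per cell cannot be told apart.

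Formalin adds methylol groups to bases and cross-links RNA to protein, and long fixation is known to leave RNA shorter and more modified. TempO-Seq needs no reverse transcription: a pair of short detector oligos anneals side by side on the target, is ligated and amplified, and the ligated product is counted. The lung holds alveolar epithelium that makes surfactant and exchanges gas, a dense capillary bed with its blood, airway and vessel walls with smooth muscle, and macrophages and lymphocytes.

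The panel covers few of the classical lung markers, and the check of the tissue label rests on those it reads. Of 15 markers of alveolar type II cells 4 had counts, and of 12 markers of type I cells 1 had. Lyz2, the lysozyme of type II cells and macrophages, was the most abundant gene in both groups. Its level was 126313 to 211121 (median 146819) CPM (counts scaled to one common library size with TMM factors) in 1 yr FFPE and 102189 to 167968 (median 141417) in FR > FFPE. The ranges overlapped, and the difference was 0.17 ± 0.20 on the log2 scale (SE, edgeR adjusted p = 0.569). Lamp3, a lamellar body protein of type II cells, and the endothelial genes Vwf, Ramp2 and Kdr were at 436.6 CPM or more in all 12 libraries.

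Total counts were 802686 to 1786807 in FR > FFPE and 226751 to 1634577 in 1 yr FFPE, so 1 CPM is about 0.23 counts in the shallowest library. The difference in mean log2 totals, −0.67, did not pass the exact permutation test (p = 0.208, adjusted p = 0.312, two-sided, smallest p possible 0.002165). Detected genes at the depth of the smallest library were 2368 ± 26.9 in 1 yr FFPE and 2341 ± 11.8 in FR > FFPE (SD, n = 6 each, exact permutation p = 0.0584, adjusted p = 0.175), against 2399 to 2524 and 2465 to 2514 without thinning. The 10 most abundant genes held 28.1 ± 2.25% and 27 ± 3.05% of counts (SD, n = 6 each, exact permutation p = 0.465). Median Pearson's r of log2 CPM across genes between libraries was 0.937 within 1 yr FFPE, 0.945 within FR > FFPE and 0.901 between the groups. The first principal component, with 30.7% of the variance, separated all FR > FFPE libraries (scores −48.3 to −7.63) from all 1 yr FFPE libraries (3.95 to 33.8). The biological coefficient of variation estimated by edgeR was 0.305 in 1 yr FFPE and 0.319 in FR > FFPE. FR > FFPE libraries 57 and 59 stood apart from the rest of their group, as given with the gene groups below, and counts without them are given there.

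**Figure D1:**
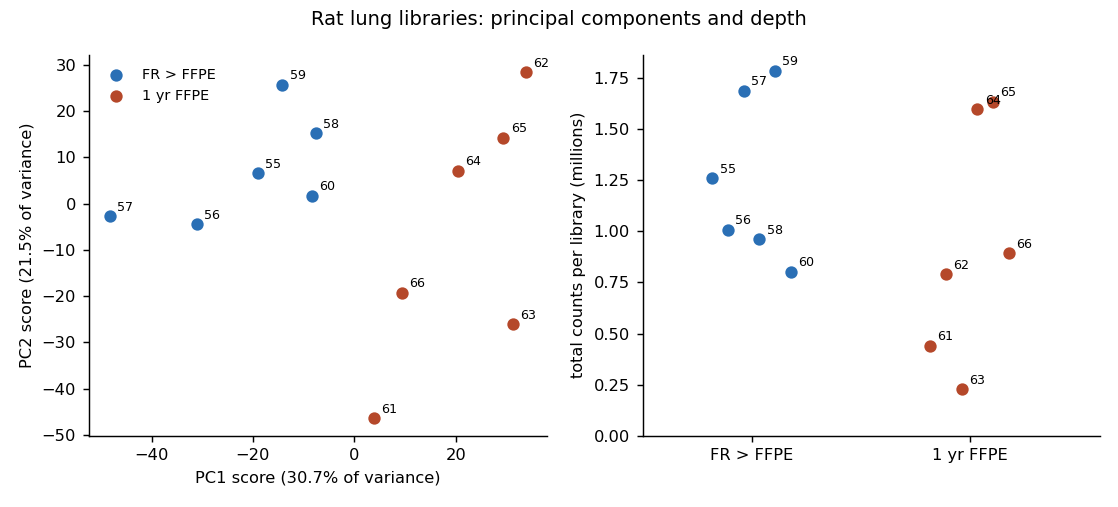
Left, scores of the 12 rat lung libraries on the first and second principal components of scaled log2 CPM, each point a library with its number. Right, total counts per library. The groups separate along the first component, while the totals overlap, with 1 yr FFPE libraries 61 and 63 the shallowest.

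The test with edgeR covered 2221 genes and gave 224 DEGs (10.1%). A DEG had to change at least 2-fold at a false discovery rate below 0.05, adjusted by Benjamini and Hochberg's method. In 1 yr FFPE 104 genes were higher (4.68% of those tested) and 120 were lower (5.4%). Over all 2221 genes the log2 fold change had a median of −0.03. Without the criterion on fold change, 200 genes were higher and 278 lower. Values of the groups did not overlap for 227 of the 2221 genes (10.2%), among them 44 of the higher and 80 of the lower DEGs. Rises were found mostly at low levels. The higher DEGs had a median level of 27.2 CPM, about 6.18 counts in the shallowest library, and the lower DEGs 67.6 CPM, against 114.5 CPM for all genes tested. Of the 445 genes of lowest level (10.4 to 43.3 CPM) 79 were higher and 27 lower, of the next 444 genes 8 were higher and 41 lower, and of the 444 most abundant 7 and 12. Where at least 50 counts in at least 6 libraries were required, 21 genes were higher and 82 lower. The shallowest library had 226751 counts in 1 yr FFPE and 802686 in FR > FFPE. This limit was therefore stricter for genes high only in 1 yr FFPE, and part of the loss of rises may follow from depth.

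**Figure D2:**
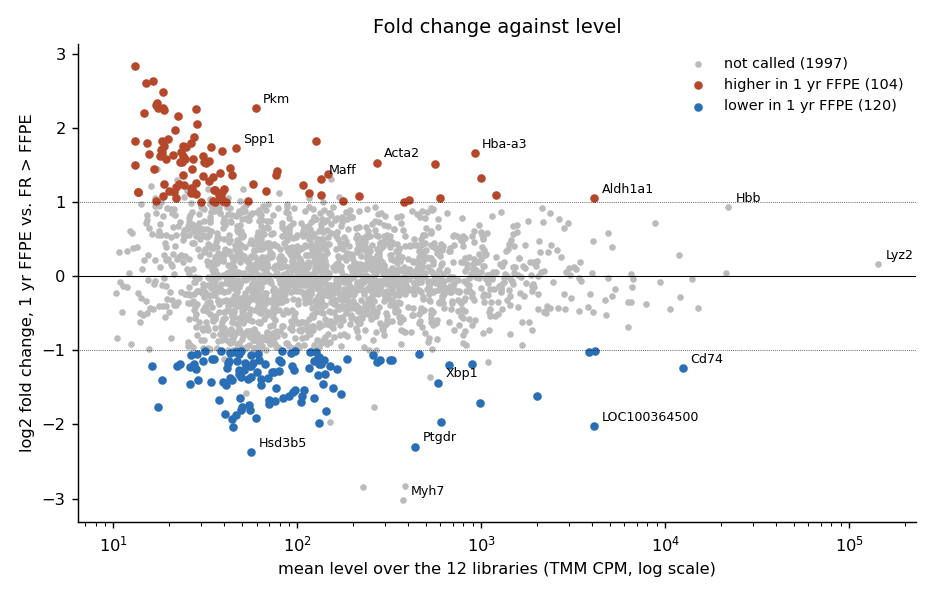
Log2 fold change of 1 yr FFPE vs. FR > FFPE against mean level over the 12 libraries (TMM CPM, log axis), with each point 1 of the 2221 genes tested and dotted lines at a 2-fold change. Most of the 104 higher genes lie at the low end of the axis, the 120 lower genes lie further along it, and Lyz2 at the far right did not pass.

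Haemoglobin transcripts, which come from red cells and their precursors, were higher in 1 yr FFPE. Hba-a3, an alpha globin gene, was at 966 to 1764 CPM (median 1335) in 1 yr FFPE and at 352 to 704 CPM (median 396) in FR > FFPE. No library of one group reached the other, and the rise was 3.17-fold (log2 1.66 ± 0.20 SE, edgeR adjusted p = 0.000224). Hba-a2, its neighbour on chromosome 10 (15589364 to 15603650, rn6 per the submitters' notes), was at 941 to 1949 CPM (median 1346) against 425 to 739 CPM (median 569). It rose 2.51-fold (log2 1.32 ± 0.21, edgeR adjusted p = 0.000607), again with no overlap. Alpha globin genes are near copies of each other, so their counts may be split between them. Alas2, which starts haem synthesis in red cell precursors, was at 76.1 to 145 CPM (median 105) against 26.8 to 56.9 CPM (median 43.2), a 1.37 ± 0.24 rise on the log2 scale (edgeR adjusted p = 0.00144). Hbb, the beta globin gene and one of the 10 most abundant genes of these libraries, was at 19075 to 36196 CPM (median 29924) against 9745 to 27498 CPM (median 13040). Its log2 difference of 0.93 ± 0.26 fell short of a 2-fold change (edgeR adjusted p = 0.0165), and the groups overlapped through FR > FFPE library 57, the highest of its group. Without library 57 the difference was 1.26 (edgeR adjusted p = 0.0013), and without 1 yr FFPE library 61 it was 1.02 (edgeR adjusted p = 0.00975), both past the 2-fold line. Of the 8 red cell markers listed 3 were tested, 2 were higher and none lower, where 4.68% of all genes were higher, and the median log2 fold change was 1.32. Without FR > FFPE libraries 57 and 59, or 1 yr FFPE libraries 61 and 63, all 3 were higher. Their summed level was 20104 to 37832 CPM in 1 yr FFPE and 10196 to 28204 CPM in FR > FFPE. In extracted RNA of frozen lung (5 libraries, CPM of the library total without TMM, a nearly empty library left out) Hba-a3 was at 1230 to 1617 CPM, Hba-a2 at 1012 to 1267 and Hbb at 32476 to 47428.

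Most of the largest falls were of genes that frozen lung hardly contained. Ptgdr, a receptor for prostaglandin D, was at 54.1 to 245 CPM (median 155) in 1 yr FFPE and at 600 to 856 CPM (median 717) in FR > FFPE, a 4.93-fold fall with no overlap (log2 −2.30 ± 0.28, edgeR adjusted p = 0.000224). In the 5 frozen libraries it was at 0 to 1.22 CPM. Hsd3b5, a steroid reductase of rodent liver, was at 14.4 to 24.9 CPM (median 17.9) against 65.5 to 116 CPM (median 95.5), with a log2 fold change of −2.37 ± 0.24 (edgeR adjusted p = 3.27e-05), and at no more than 0.497 in frozen lung. The same order of medians, FR > FFPE above 1 yr FFPE above frozen lung, held for genes of other tissues. Snap25, a synaptic vesicle fusion protein, had medians of 16.6 and 74.2 CPM in 1 yr FFPE and FR > FFPE. Prl, the pituitary hormone prolactin, had 17.5 and 74.7, and Scg3, a granin of endocrine cells, had 21.1 and 84.7. In each of the 3 the groups did not overlap, and medians in frozen lung were 0.497, 0 and 0.993 CPM. Smtnl1, a regulator of muscle contraction, and Hsd17b2, which oxidizes sex steroids, fell by 1.92 and 1.87 on the log2 scale (edgeR adjusted p = 0.000543 for both).

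Over all genes tested, 264 had a median under 1 CPM in frozen lung. Of these 50 were lower in 1 yr FFPE, 30 were higher, and 30.3% were called in all, against 2.59% of the 735 genes between 100 and 1000 CPM in frozen lung. The 264 genes had a median of 41.2 CPM in FR > FFPE and 28.2 in 1 yr FFPE, so both kinds of lysate gave counts for genes at the floor of the extracted RNA. Their median log2 fold change was −0.41, against −0.03 for all genes. The 735 genes had medians of 275.7 CPM in FR > FFPE and 284.4 in 1 yr FFPE, so level in these libraries differed along with level in frozen lung. By level in the 12 libraries alone, 23.8% of the 445 lowest genes (10.4 to 43.3 CPM) were called. Of the 444 genes at 157 to 393 CPM 2.7% were called. The parts of the 2 kinds of level in the calls were not separated. Among lower DEGs 41.7% were under 1 CPM in frozen lung, among higher DEGs 28.8%, and among all genes tested 11.9%. Frozen lung differs from both groups in its extraction as well as in its fixation, and what gave these counts in lysates was not tested.

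**Figure D3:**
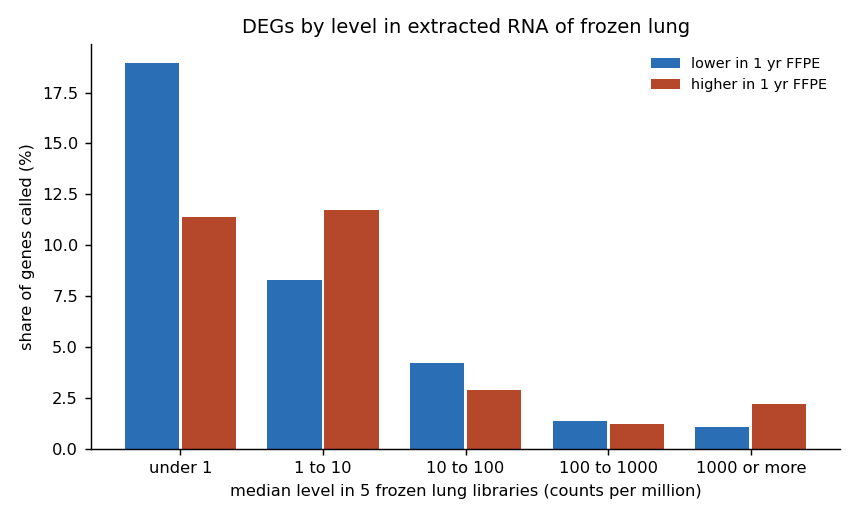
Share of the genes tested that were lower or higher in 1 yr FFPE (%), by the gene's median level in 5 libraries of extracted RNA from frozen lung (CPM of the library total). Calls were most frequent under 1 CPM, with 50 lower and 30 higher of 264 genes, and least frequent between 100 and 1000, with 10 lower and 9 higher of 735. The 264 genes were also lower in the libraries compared, at medians of 41.2 CPM in FR > FFPE and 28.2 in 1 yr FFPE. The 735 were at 275.7 and 284.4 CPM.

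Cytochrome P450 genes, whose products oxidize drugs, steroids and fatty acids, held DEGs in both directions. Of 28 tested 6 were lower, 3 were higher and 19 did not pass, 32.1% called against 10.1% over all genes, with a median log2 fold change of −0.50. Without 1 yr FFPE libraries 61 and 63 these counts were 10 lower and 1 higher, and without FR > FFPE libraries 57 and 59 they were 6 and 1. The lower genes were Cyp2c11, Cyp11b2, Cyp19a1, Cyp4a1, Cyp4a2 and Cyp4a8, and the higher ones Cyp2f4, Cyp2d5 and Cyp2w1. Cyp2c11, the main P450 of male rat liver, had medians of 13.2 CPM in 1 yr FFPE and 63.5 in FR > FFPE, with no overlap (log2 −1.86 ± 0.29, edgeR adjusted p = 0.000543). Cyp11b2, aldosterone synthase of the adrenal cortex, fell by 1.65 ± 0.28 (edgeR adjusted p = 0.00104). Cyp4a1, a fatty acid hydroxylase, fell by 1.51 ± 0.39 (edgeR adjusted p = 0.0121), with ranges of 8.77 to 95.6 and 67.5 to 151 CPM that overlapped. All 3 had medians of at most 0.407 CPM in frozen lung. Cyp2f4, a P450 of bronchiolar club cells, went the other way. It was at 67.2 to 457 CPM (median 168) against 68.5 to 97 CPM (median 78.3), a 1.39 ± 0.37 rise (edgeR adjusted p = 0.015). That rise was 0.69 without 1 yr FFPE libraries 61 and 63 together (edgeR adjusted p = 0.069), which had 331 and 457 CPM, and 1.43 without FR > FFPE libraries 57 and 59 (edgeR adjusted p = 0.0631). Cyp3a2 had the highest level of the P450 genes, at 232 to 1014 CPM against 864 to 1173 CPM, and its log2 difference of −0.91 ± 0.30 fell short of a 2-fold change (edgeR adjusted p = 0.0377). Among the other genes for hepatocyte products Apoa2, an apolipoprotein of HDL, fell by 1.82 ± 0.31 (medians 60 and 227 CPM, edgeR adjusted p = 0.00108). Apoa2 and Cyp2c11 were the 2 called among 13 hepatocyte markers tested, 15.4% against 10.1% over all genes, and the median log2 fold change of the list was 0.25. Without 1 yr FFPE libraries 61 and 63 there were 5 lower members. Summed over these markers, 1 yr FFPE library 63 had 5641 CPM and the other 11 libraries 1654 to 3487 CPM. Alb, serum albumin, was at 1142 CPM in library 63, at 371 CPM in FR > FFPE library 57 and at no more than 86.1 CPM elsewhere.

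A pair of annotated major histocompatibility genes on chromosome 20 fell together. LOC100364500 (2704148 to 2707121, rn6 per the submitters' notes) was at 765 to 2416 CPM (median 1527) in 1 yr FFPE and at 4028 to 8482 CPM (median 7153) in FR > FFPE, a 4.07-fold fall (log2 −2.03 ± 0.27, edgeR adjusted p = 0.000318). RT1-CE10, a class I gene of the rat complex (154074 to 157862), was at 110 to 351 CPM against 584 to 1230 CPM (log2 −1.97 ± 0.25, edgeR adjusted p = 0.000271). Neither gene's groups overlapped. The counts of LOC100364500 were 6.88 to 6.92 times those of RT1-CE10 in the FR > FFPE libraries and 6.09 to 6.96 times in 1 yr FFPE, so the values may be reads shared between similar sequences, and they are not 2 independent falls. Both genes had 0 counts in all 5 frozen libraries. RT1-CE7, another class I gene and one of the 10 most abundant, did not pass, with medians of 10769 and 12839 CPM (edgeR adjusted p = 0.239).

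Of 8 lymphocyte markers tested 3 were lower, 5 did not pass and none was higher, where 5.4% of all genes were lower, and the median log2 fold change was −0.83. Gzmb, granzyme B of cytotoxic cells, was at 35.1 to 134 CPM (median 65.5) in 1 yr FFPE and 184 to 225 CPM (median 203) in FR > FFPE, with no overlap (log2 −1.46 ± 0.25, edgeR adjusted p = 0.00108). Ms4a1, the B cell antigen CD20, was at 13.2 to 38.2 CPM against 51.1 to 163 CPM, also with no overlap (log2 −1.76 ± 0.34, edgeR adjusted p = 0.00248). In frozen lung their medians were 2.04 and 2.75 CPM. Cd74, the invariant chain that loads class II molecules, was at 5449 to 8445 CPM (median 7950) against 6648 to 40058 CPM (median 12564). The groups overlapped, and the fall of 1.24 ± 0.34 (edgeR adjusted p = 0.0175) leaned on FR > FFPE library 59, the highest. Without library 59 the difference was −0.78 (edgeR adjusted p = 0.0364), without libraries 57 and 59 it was −0.51 (edgeR adjusted p = 0.0894), and without 1 yr FFPE libraries 61 and 63 it was −1.08 (edgeR adjusted p = 0.0745). Lck, a T cell kinase, had medians of 174 and 112 CPM (edgeR adjusted p = 0.767), and Ptprc, the common leukocyte antigen, had 153 and 182 (edgeR adjusted p = 0.325). Without libraries 57 and 59, or without 61 and 63, the list had 2 lower members. The summed level of the list was 6317 to 9021 CPM in 1 yr FFPE, 7433 to 13821 CPM in 4 of the FR > FFPE libraries, and 23950 and 41753 CPM in libraries 57 and 59.

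Those same libraries held striated muscle transcripts. Myh7, the slow myosin heavy chain of heart and muscle, was at 1379 CPM in library 57 and 2600 CPM in library 59, at 6.53 to 22.5 CPM in the other FR > FFPE libraries and at 11.7 to 246 CPM (median 48.6) in 1 yr FFPE. Csrp3, a Z-disc protein, was at 2293 and 1550 CPM in libraries 57 and 59 and at 56.9 to 64 CPM in the other 4. Their fitted log2 fold changes of −3.02 ± 1.5 and −2.83 ± 1.29 did not pass (edgeR adjusted p = 0.172 and 0.141). Without libraries 57 and 59 the direction turned, to 2.23 for Myh7 and 0.65 for Csrp3, neither past the test (edgeR adjusted p = 0.0548 and 0.584). In that fit Actc1, cardiac actin, and Pgam2, a muscle glycolytic enzyme, were higher in 1 yr FFPE, at 1.64 and 3.36 (edgeR adjusted p = 0.0117 and 0.0162), against −0.69 and −1.97 with all libraries (edgeR adjusted p = 0.569 and 0.34). Of 13 cardiac markers 2 were tested, Myh7 and Actc1, whose sum was 1897 and 2925 CPM in libraries 57 and 59 and 27.2 to 59.1 CPM in the other FR > FFPE libraries. Without libraries 57 and 59 edgeR called 124 higher and 111 lower genes, and 171 of the 224 DEGs were kept.

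**Figure D4:**
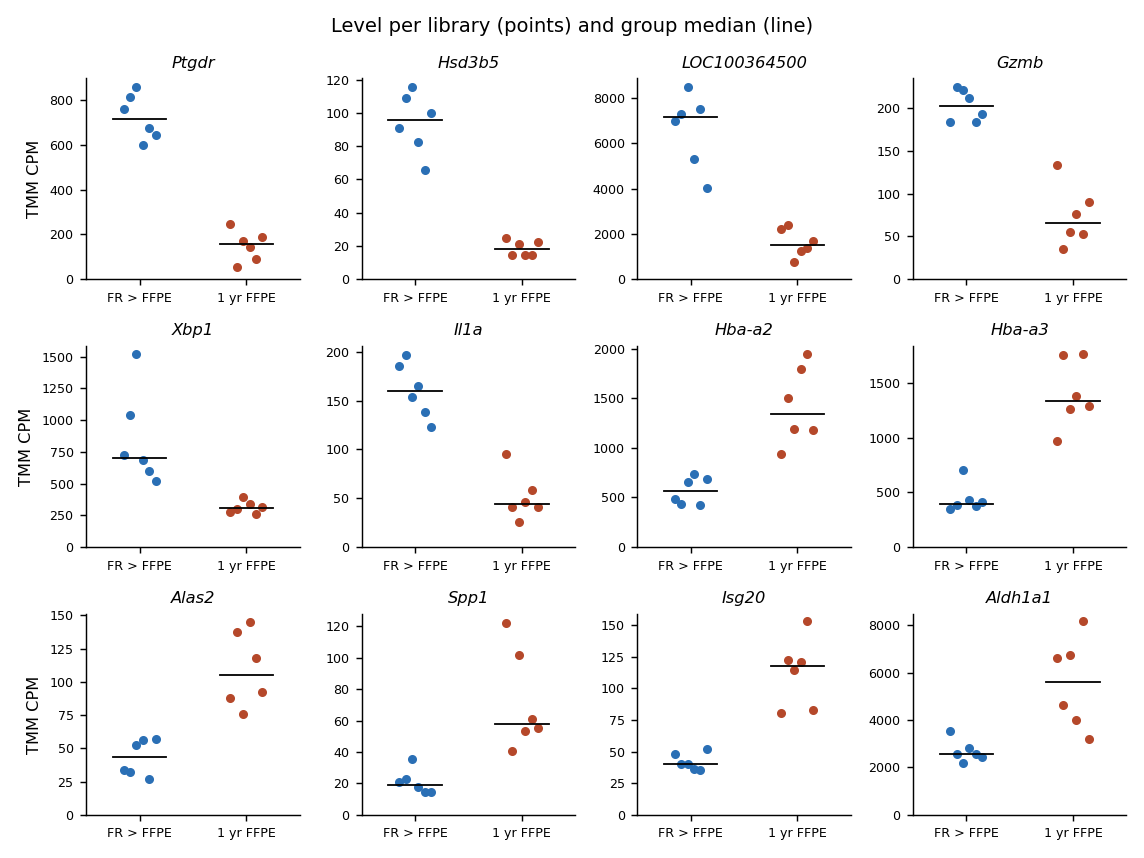
Level of 12 genes in each library (TMM CPM, linear axis from 0), each point 1 library and each line the median of 6. The genes were picked from the DEGs, most of them by a rule that required groups without overlap. That the groups do not overlap for 11 of them thus follows largely from the choice, against 10.2% of all genes tested. As examples, Ptgdr was at 600 to 856 CPM in FR > FFPE against 54.1 to 245 in 1 yr FFPE, and Isg20 at 35.5 to 52.3 against 80.3 to 153. The groups overlap for Aldh1a1.

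Of the genes of vessel and airway walls, 2 of 7 smooth muscle and pericyte markers tested were higher, where 4.68% of all genes were, 5 did not pass, and the median log2 fold change was 0.72. Without 1 yr FFPE libraries 61 and 63 none was higher. Acta2, smooth muscle actin, was at 181 to 778 CPM (median 373) in 1 yr FFPE and 43.2 to 219 CPM (median 151) in FR > FFPE (log2 1.53 ± 0.46, edgeR adjusted p = 0.0292). Myl9, a regulatory myosin light chain, was at 382 to 1294 CPM (median 790) against 264 to 646 CPM (median 376) (log2 1.06 ± 0.30, edgeR adjusted p = 0.0193). Both pairs of ranges overlapped, and both calls were lost when 1 yr FFPE library 61, 63 or 65 was left out, where Acta2 was at 1.25 to 1.43 and Myl9 at 0.88 to 0.99. Acta2 was also lost without FR > FFPE library 55 (1.53, edgeR adjusted p = 0.0522) or 57 (1.66, edgeR adjusted p = 0.0525), and Myl9 without FR > FFPE library 56 (0.98) or 58 (0.96). Tagln, transgelin, and Mylk, myosin light chain kinase, gave 0.36 ± 0.38 and −0.33 ± 0.21 (edgeR adjusted p = 0.517 and 0.264). None of 7 endothelial markers passed, with values of −0.47 ± 0.18 for the VEGF receptor Kdr and 0.73 ± 0.26 for von Willebrand factor, Vwf (edgeR adjusted p = 0.0666 and 0.0511). Of 15 fibroblast and matrix genes 1 was higher and none lower (6.67% called against 10.1% over all genes). That gene was Col1a1, at a median of 32.9 CPM, while Col3a1, Vim and Postn, each with a median of at least 3700 CPM, did not pass (edgeR adjusted p from 0.24 to 0.954).

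Of 14 macrophage and monocyte markers 1 was higher and none lower (7.14% called against 10.1% over all genes). It was Spp1, osteopontin, at 40.9 to 122 CPM (median 57.9) against 14.3 to 35.6 CPM (median 19.1), a 3.31-fold rise with no overlap (log2 1.73 ± 0.32, edgeR adjusted p = 0.00168). Its level in frozen lung was 35.5 to 128 CPM. Apoe, Ctsd and Aif1, the most abundant of the list, lay within −0.14 and 0.04 on the log2 scale (edgeR adjusted p from 0.761 to 0.997). The neutrophil protein S100a9 was at 1142 to 1951 CPM against 736 to 1030 CPM, with no overlap, but its 0.87 ± 0.16 difference fell short of a 2-fold change (edgeR adjusted p = 0.00208).

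**Figure D5:**
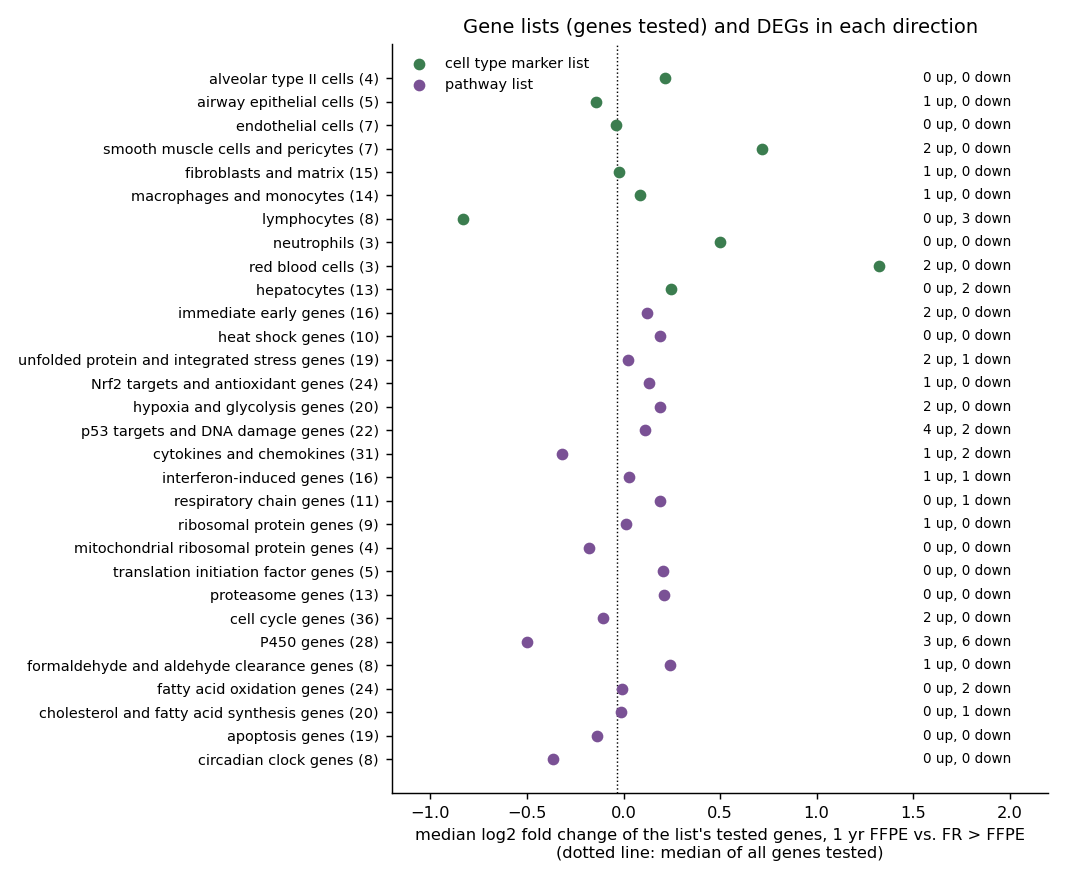
Median log2 fold change of the tested genes of each cell type marker and pathway list with at least 3 genes tested, with the number tested in brackets and the number of DEGs higher (up) and lower (down) at the right. The dotted line is the median of all genes tested, −0.03. Red cell markers lie furthest to the right at 1.32 and lymphocyte markers furthest to the left at −0.83.

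Genes of the responses to protein, DNA and oxidative damage moved singly and in both directions. Of 19 unfolded protein and integrated stress genes 2 were higher, 1 was lower and 16 did not pass (15.8% called against 10.1% over all genes, median 0.02). Xbp1, a transcription factor of the unfolded protein response, was at 263 to 393 CPM (median 309) in 1 yr FFPE and 518 to 1520 CPM (median 704) in FR > FFPE, with no overlap (log2 −1.44 ± 0.24, edgeR adjusted p = 0.00079). In frozen lung it was at 136 to 190 CPM. Atf5, a factor of the integrated stress response, rose by 1.02 ± 0.17, with no overlap (medians 242 and 117 CPM, edgeR adjusted p = 0.00079). Atf5 sat at the 2-fold line, and without FR > FFPE library 60 (0.98) or 1 yr FFPE library 63 or 66 (0.99 and 0.98) it did not pass. Sesn2, a stress-induced sestrin, gave 1.10 ± 0.27 (edgeR adjusted p = 0.0102) and 0.95 without 1 yr FFPE library 61. None of 10 heat shock genes was a DEG. Hsp90aa1, an inducible chaperone, came closest, at 329 to 405 CPM against 579 to 786 CPM (log2 −0.98 ± 0.14, edgeR adjusted p = 0.000318), with no overlap. Without FR > FFPE library 60 or 1 yr FFPE library 63 or 64 it passed 2-fold, at −1.01 to −1.02.

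Of 22 p53 and DNA damage genes 4 were higher and 2 lower, 27.3% of those tested against 10.1% over all genes. The higher genes were Cdkn1a, Plk3, Sesn2 and Xrcc1. Without FR > FFPE libraries 57 and 59, or 1 yr FFPE libraries 61 and 63, 2 members were higher and 2 lower. Where at least 50 counts in at least 6 libraries were required, 1 was higher and 2 lower. Cdkn1a, the p53 target that halts the cell cycle, was at 58.9 to 182 CPM against 25.6 to 58.2 CPM (log2 1.16 ± 0.32, edgeR adjusted p = 0.0165). The difference was 0.90 without 1 yr FFPE library 63 and 0.89 without FR > FFPE libraries 57 and 59. Without 1 yr FFPE libraries 61 and 63 it was 0.73 (edgeR adjusted p = 0.0602). The DNA repair gene Fancd2 was at 33.6 to 66.9 CPM (median 47.2) against 103 to 168 CPM (median 148), without overlap, and fell by 1.57 ± 0.22 (edgeR adjusted p = 0.000318). In frozen lung its median was 5.04 CPM. Plk3, a stress-responsive kinase, gave 1.01 ± 0.29 (edgeR adjusted p = 0.0199) and did not pass without FR > FFPE library 58 or 59 or 1 yr FFPE library 61, 63 or 66 (0.84 to 1.00). Of 24 Nrf2 and antioxidant genes 1 was higher and none lower (4.17% called). The gene was Gpx4, which reduces lipid peroxides, at 390 to 659 CPM against 170 to 357 CPM (log2 1.03 ± 0.20, edgeR adjusted p = 0.00248). It fell just short of 2-fold without FR > FFPE library 56 or 57 or 1 yr FFPE library 65 (0.96 to 0.99). Prdx1, Gpx3 and Cat, the most abundant of that list, did not pass.

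Formaldehyde is oxidized in cells by Adh5, aldehyde dehydrogenases and one-carbon enzymes. Of 8 genes of aldehyde clearance tested 1 was higher and none lower (12.5% called against 10.1% over all genes). Aldh1a1, the retinal dehydrogenase, was at 3204 to 8168 CPM (median 5610) against 2198 to 3534 CPM (median 2550), a 2.07-fold rise in overlapping ranges (log2 1.05 ± 0.22, edgeR adjusted p = 0.00429). It was 0.91 to 0.99 without 1 yr FFPE library 61, 63 or 65. In frozen lung it was at 3285 to 4864 CPM. Cat and Adh4 of the same list were at 0.12 ± 0.23 and −0.57 ± 0.20 (edgeR adjusted p = 0.722 and 0.0471).

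DEGs among signalling genes lay in both directions. Of 31 cytokine and chemokine genes 1 was higher, the chemokine Cxcl2, and 2 were lower (median −0.32). This share of 9.68% called was near the 10.1% over all genes. Called or not, 9 of the 31 had a log2 fold change above 0, against 1045 of the 2221 genes tested. Il1a, an interleukin released by damaged cells, was at 25.4 to 95.6 CPM (median 43.9) against 123 to 197 CPM (median 160), with no overlap (log2 −1.62 ± 0.25, edgeR adjusted p = 0.000489), and Il10 fell by 1.39 ± 0.29 (edgeR adjusted p = 0.00408). Of 16 interferon-induced genes 1 was higher and 1 lower (12.5% called). Isg20, an antiviral exonuclease, rose by 1.43 ± 0.20 (medians 117 and 40.2 CPM, edgeR adjusted p = 0.000318) and Ifit3 fell by 1.17 ± 0.21 (medians 82.3 and 175 CPM, edgeR adjusted p = 0.00167). Neither pair of ranges overlapped, while Mx1 and Mx2, the most abundant of the list, lay at −0.02 and 0.24 (edgeR adjusted p = 0.972 and 0.416). Of 16 immediate early genes, which are transcribed within minutes of a stimulus, Egr2 and Maff were higher and none was lower (12.5% called). Maff, a small partner of Nrf2 and AP-1 factors, was at 136 to 288 CPM (median 190) against 36.3 to 117 CPM (median 68.7), without overlap (log2 1.31 ± 0.28, edgeR adjusted p = 0.0039). Zfp36, Klf6 and Ier2 did not pass (edgeR adjusted p from 0.0857 to 0.515).

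In metabolism, 2 of 20 hypoxia and glycolysis genes were called, both higher, and this share of 10% was near the 10.1% over all genes. Pkm, pyruvate kinase, was at 26.3 to 163 CPM (median 110) against 15.2 to 33 CPM (median 19), a 4.81-fold rise (log2 2.27 ± 0.37, edgeR adjusted p = 0.000701), where 1 yr FFPE library 62 and FR > FFPE library 60 overlapped. In frozen lung Pkm was at 0 to 0.798 CPM. Adm, the vasodilator adrenomedullin, gave 1.18 ± 0.39 (edgeR adjusted p = 0.0377) and did not pass without any 1 of FR > FFPE libraries 55, 56, 57 and 59 or 1 yr FFPE libraries 62, 64 and 65 (1.02 to 1.22, edgeR adjusted p from 0.0516 to 0.0844). Aldoa, aldolase, lay without overlap at 543 to 790 against 834 to 1269 CPM, a log2 difference of −0.58 ± 0.16 (edgeR adjusted p = 0.0169) short of 2-fold. Vegfa, the vascular growth factor, did not pass at medians of 6162 and 6938 CPM (edgeR adjusted p = 0.662). Of 24 fatty acid oxidation genes 2 were lower, Cyp4a1 and Ppargc1a, and none was higher (8.33% called). Ppargc1a, a coactivator of mitochondrial genes, fell by 1.26 ± 0.18 with no overlap (medians 55.5 and 134 CPM, edgeR adjusted p = 0.000318). Nr1h3, the oxysterol receptor, was the 1 gene called of 20 in cholesterol and fatty acid synthesis (5%). It was lower, at −1.06 ± 0.24 (edgeR adjusted p = 0.0066). It was −0.92 to −0.99 without FR > FFPE library 55 or 56 or 1 yr FFPE library 65.

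None of 13 proteasome, 5 translation initiation factor, 4 mitochondrial ribosomal protein, 19 apoptosis or 8 circadian clock genes was called by edgeR, although 6 genes of these lists had an adjusted p under 0.05. The share called was 10.1% over all genes and 4.28% among the 444 most abundant. Of 9 ribosomal protein genes 1 was higher (11.1% called), Rps27l, with a median of 23.3 CPM. The abundant Rps27a and Rps6 gave −0.37 ± 0.21 and −0.34 ± 0.21 (edgeR adjusted p = 0.207 and 0.25). Of 11 respiratory chain genes 1 was lower (9.09% called), Atp5l, at −1.03 ± 0.26 (edgeR adjusted p = 0.0115). Atp5l did not pass without FR > FFPE library 56 or 57 or 1 yr FFPE library 62, 63, 64 or 65 (−0.91 to −0.98). Of 36 cell cycle genes 2 were higher, Cdkn1a and Mybl2, and none lower (5.56% called). Ccnd1, cyclin D1, was at −0.59 ± 0.16 (edgeR adjusted p = 0.0138), short of 2-fold. The 10 most abundant genes, which besides Lyz2, Hbb, Cd74 and RT1-CE7 were S100a6, Ahnak, Igfbp7, AABR07037343.1, AABR07066516.1 and LOC102553715, included 1 DEG, Cd74. The remaining rises named by the rule reached medians of 45.4 to 158 CPM in 1 yr FFPE. Osgin1, an oxidative stress-induced growth inhibitor, rose by 1.75 ± 0.36 to a median of 50.4 CPM (edgeR adjusted p = 0.0035), Arsi, a sulfatase, by 1.69 ± 0.27 to 58.2 CPM (edgeR adjusted p = 0.000607), and Gjb1, a gap junction protein, by 1.47 ± 0.31 to 47 CPM (edgeR adjusted p = 0.00374). Ralgds, a Ral exchange factor, rose by 1.40 ± 0.30 to 45.4 CPM (edgeR adjusted p = 0.00435), and Dynlt3, a dynein light chain, by 1.23 ± 0.23 to 158 CPM (edgeR adjusted p = 0.00173).

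Rat liver offered the most similar contrast, 6 libraries fixed directly in formalin for 18 to 24 h against 6 frozen and then fixed, and shares no library with lung. Total counts were 139477 to 889125 in directly fixed liver and 2156621 to 3898086 in liver frozen and then fixed, without overlap. In lung the totals of the groups overlapped. Tissue, strain (F344 in liver), time of direct fixation and this gap in depth differ together between the contrasts and cannot be told apart. In one edgeR fit of the 24 libraries with TMM scaling, the log2 fold change differed between lung and liver past the same thresholds in 632 of 2302 genes (27.5%), with 205 higher and 427 lower in lung. That split depended on scaling. With total counts it was 36 and 1066, as the median difference over all genes moved from −0.20 to −1.08, and with the DESeq2 Wald test it was 428 and 318, at a median of 0.14. Differences of single genes are therefore relative to these medians. The log2 fold change of Hbb was 0.89 in lung and −2.74 in liver, so the contrasts differed by 3.63 ± 0.45 (edgeR adjusted p = 1.27e-05) with TMM and by 2.63 with total counts. Cyp1a2, a P450 of liver, and Serpina1, the antitrypsin made there, differed by 2.97 ± 0.48 and 2.96 ± 0.60 (edgeR adjusted p = 0.000117 and 0.000798), with liver changes of −2.18 and −1.86. Slc6a13, a GABA transporter, differed by 3.70 ± 0.49 and Aspdh, an aspartate dehydrogenase, by 2.92 ± 0.54 (edgeR adjusted p = 1.55e-05 and 0.000356). Both were low in lung. Slc6a13 had means of 17.9 CPM in 1 yr FFPE and 4.33 in FR > FFPE, and Aspdh 8.72 and 1.69. The largest negative differences were of muscle genes, from −6.47 for Tcap to −4.08 for Myl2, with Pgam2, Csrp3 and Nrap between them. Without lung libraries 57 and 59 these were −2.57 for Tcap and −1.94 for Nrap (edgeR adjusted p = 0.047 and 0.0187), and Pgam2, Csrp3 and Myl2 no longer passed, at −0.60, −1.48 and −0.90 (edgeR adjusted p = 0.658, 0.181 and 0.336). Myl2 also did not pass without liver FR > FFPE library 73 or liver FFPE library 84 (edgeR adjusted p = 0.0552 and 0.0501). Tcap had means of 9.37 CPM in directly fixed liver and 0.535 in liver frozen and then fixed, so its difference rests on values near the floor.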

How the data were processed

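Rat lung lysates were measured with TempO-Seq. The submitters' processing notes name STAR 2.5.3a, Partek, CASAVA 1.8.2 and the build rn6, with no role given for this panel. The deposited lung and liver tables hold estimated counts per gene, not normalized by the authors, and 93.1% of values above 0 were within 0.01 of a whole number. Of 28760 genes listed for lung 2727 had counts in the 12 libraries, more than the 2603 of the panel. Some genes tested may therefore not be targets of the panel, and which ones was not checked. A further table holds log2 values made by the authors from CPM, used in 1 alternative. Frozen libraries 49 to 53 served as levels only, since number 54 held 12 counts.

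Counts were rounded. edgeR 4.0.16 (R 4.3.3) tested 1 yr FFPE vs. FR > FFPE in 12 libraries with TMM scaling, its own low-count filter and a robust quasi-likelihood fit. A DEG changed at least 2-fold at a false discovery rate (Benjamini and Hochberg) below 0.05. The fit and the interaction were tested on simulated data. Totals were 226751 to 1786807 counts, which limits low genes. Intervals of replicates cover these libraries only, and no 2 libraries of a group agreed within sampling noise (chi-square per degree of freedom at least 6.23). Library measures used the exact permutation test in Python 3.11.15 with scipy 1.17.1, adjusted over 3 measures.

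The libraries compared, the gene lists and the tests were chosen with earlier results of these data known. Named genes were the 12 largest rises and falls among DEGs without overlap and with at least 50 CPM in the higher group, the 3 largest rises and falls and the 3 most abundant genes of each list, the 10 most abundant genes, and the 5 largest interaction differences of either sign. A gene outside this rule is named where it is the only member called in its list or completes a count, in which case its values were known when it was chosen. Alternatives changed scaling (total count, DESeq2 1.42.0 size factors, upper quartile, totals without 18 genes over 1% of a library), test (DESeq2, limma 3.58.1), filter, libraries, depth and fold criterion. Transcript length and GC content were not used here. One gene that the rule names is not reported here.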

Additional observations from a re-analysis of the deposited data

Results flagged for a closer look

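In 35 of 296 groups of 6 libraries 1 library lay far from the other 5 by Dixon's criterion at 95%. The criterion marks about 5% of groups of independent, normally distributed values. Here all genes share the same libraries, and some were named for large differences, so that rate cannot show whether 35 is an excess. Among 1 yr FFPE libraries, number 63 was highest for the hepatocyte products Alb at 1141.7 CPM, Fgg at 1877.4 CPM and Serpina1 at 317.1 CPM, for Apoe at 2638.6 CPM and for Acadm, a fatty acid oxidation enzyme, at 744.2 CPM. Library 65 was highest for the muscle genes Myh7 at 246.3 CPM, Pgam2 at 207.9 CPM and Csrp3 at 349.2 CPM. Library 62 was highest for Lyz2 at 211120.8 CPM, for the macrophage gene Aif1 at 565.5 CPM and for Camp, a neutrophil peptide, at 67.22 CPM. Library 61 was highest for Cyp2c11 at 36.34 CPM and Prl at 53.55 CPM and lowest for Ahnak at 7455.5 CPM.

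Among FR > FFPE libraries, number 59 was highest for Ms4a1 at 163.3 CPM, Ptprc at 316.7 CPM and Lck at 403.3 CPM, genes of lymphocytes and other leukocytes. It was also highest for Apoe at 4498.0 CPM, Myl9 at 645.8 CPM, Nfkb1 at 508.6 CPM and Rpl6 at 4637.6 CPM, and lowest for Kdr at 3109.2 CPM. Library 57 was highest for Hbb at 27498.4 CPM and Hba-a3 at 703.7 CPM, for Alb at 371.5 CPM, for Mylk at 1043.3 CPM and for Adh4 at 1074.0 CPM. The growth-related genes Btg2 at 751.9 CPM and Ccnd1 at 955.8 CPM were highest there too, as was AABR07066516.1 at 14967.0 CPM, while the stress factor Atf4 was lowest at 2071.0 CPM. Library 60 was highest for Mx1 at 2564.9 CPM, Mx2 at 2127.2 CPM and Pkm at 32.97 CPM and lowest for Hsp90aa1 at 578.7 CPM. The cause of these values was not tested.

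The contrast of direct fixation with freezing first differed between lung and liver for 632 genes by the edgeR interaction test. Of the genes named, Slc6a13 at 3.70, Hbb at 3.63, Cyp1a2 at 2.97, Serpina1 at 2.96 and Aspdh at 2.92 differed upwards in lung, and Tcap at −6.47, Pgam2 at −5.87, Csrp3 at −4.92, Nrap at −4.47 and Myl2 at −4.08 downwards, all on the log2 scale. Slc6a13 and Aspdh in lung and Tcap in liver were at low levels, as given above.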

How the results depend on the processing

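No paired analysis was possible because the labels give each rat lung library its own number and do not say whether the groups shared rats. Under other scalings and tests (total count, DESeq2 size factors, upper quartile, totals without the most abundant genes, DESeq2 and limma) the DEGs stayed within 1.5 times of 224. Leaving out each library in turn gave 211 to 276 DEGs, 97 to 150 higher and 91 to 179 lower, and 145 of the 224 were called in all 12 of these fits. Counts of rises moved most with level and depth. Without a filter 163 genes were higher, with at least 50 counts in 6 libraries 103 were called and 21 were higher, and with all libraries thinned to the smallest 111 were called and 30 were higher. By adjusted p alone 478 were called, 200 higher and 278 lower. Among genes of at least 50 CPM on average, a limit chosen after seeing the data, 95 were called, 27 higher and 68 lower. Fewer genes were tested there, and those below the limit were called more often. In the main fit 23.8% of the 445 genes of lowest level (10.4 to 43.3 CPM) were called, against 10.1% over all genes. With total counts the hypoxia and glycolysis list had 1 DEG and the respiratory chain list 0. The interaction gave 1102 genes with total counts, 36 higher and 1066 lower, and 428 higher with DESeq2. Leaving out each of 24 libraries gave 536 to 792, with 177 to 280 higher and 304 to 559 lower. The share of counts in the 50 most abundant genes differed by −0.301 percentage points (exact permutation p = 0.877). For the 10 most abundant it differed by 1.16 (exact permutation p = 0.465), and neither difference passed. Of the 47 named DEGs 33 kept their call under each alternative that tested them, 19 of them under all 27 and 14 under 24 to 26, since filters or thinning removed the gene from the rest. Among the values of these 47 genes 83 of 1226 fell short of the call, and 0 changed sign. Of the other named genes Actc1 and Pgam2 turned and were called, at 1.64 and 3.364, without libraries 57 and 59. Myh7 and Csrp3 turned in the same fit without a call, to 2.23 and 0.65. In all, 148 values of named genes had the other sign with no call in either fit. The fits without libraries 57 and 59 or 61 and 63 were chosen after seeing the data. In the shallowest library 1 CPM is 0.23 counts, which limits genes of low level.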
